A study of Mus musculus with 143 samples.

Results

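This account follows 10 mouse genes of maternal mRNA deadenylation, Btg4, Cnot1, Cnot2, Cnot3, Cnot6, Cnot6l, Cnot7, Cnot8, Zfp36l2 and Pan2, through every single-oocyte RNA library of a study of the RNA exosome ribonucleases DIS3 and EXOSC10. The genes were chosen by name, as parts of that machinery, and not by a threshold on values, but with earlier results of these data known. All 10 were found, among 55573 gene identifiers in the poly(A) files and 55487 in the RiboMinus files, and all 10 passed the filter on low counts in each fit. Poly(A) libraries came from fully grown oocytes with an intact germinal vesicle (GV, 8 control and 15 Dis3 conditional knockout, cKO, oocytes), from oocytes labelled GV3h, a 3 h stage (8 control and 16 Dis3 cKO) and from metaphase II eggs (MII, 8 control and 16 Dis3 cKO). The labels' design text names 16 GV Dis3 cKO libraries, of which 15 were found. RiboMinus libraries, in which ribosomal RNA is depleted and cDNA is primed with random hexamers, came from adult GV oocytes (8 control and 8 Dis3 cKO) and from p20 oocytes (8 each of control, Dis3 cKO, Exosc10 cKO and a genotype written as dcKO). The labels name no strain, no Cre driver and no age beyond adult and p20, and do not say what dcKO combines or whether the oocytes of a group came from separate animals, so every p-value measures the spread between these oocytes. Mutant mice were made with CRISPR/Cas9. GV and GV3h oocytes were dissected from ovaries and kept in M2 medium, while MII eggs were taken from oviducts after superovulation, so stage and route of collection cannot be told apart.

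A fully grown oocyte is transcriptionally quiet and runs on stored mRNA. Shortening of the poly(A) tail by deadenylases silences those messages and starts their decay as the oocyte matures. The CCR4-NOT complex is built on the scaffold CNOT1, with CNOT2 and CNOT3 forming its NOT module. It carries a CCR4-type nuclease (CNOT6 or CNOT6L) and a CAF1-type nuclease (CNOT7 or CNOT8). BTG4, a BTG/TOB family adaptor made in oocytes, links the CAF1-type subunits to maternal mRNA, ZFP36L2 binds AU-rich elements and recruits the complex to them, and PAN2 is the nuclease of the separate PAN2-PAN3 complex. Oligo(dT) beads select RNA by its tail, so in poly(A) libraries the tail length and the amount of a message cannot be told apart.

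Promoters are shown for a pair of members, Cnot3 because RNA polymerase II peaks reached it and Btg4 because no peak did, although Btg4 gave some of the largest changes below. Neither trait was particular to this pair, as the next paragraph gives. RefSeq windows (GRCm38.p6) were matched for 7 of the 10 members. The 250 bases before the listed start are printed 5′ to 3′ on the plus strand, and capitals mark matches to CCAAT (the CCAAT box) or GGGCGG (the GC box), searched on both strands as CCAAT or ATTGG and GGGCGG or CCGCCC.
Cnot3, chr7:3645019-3645268: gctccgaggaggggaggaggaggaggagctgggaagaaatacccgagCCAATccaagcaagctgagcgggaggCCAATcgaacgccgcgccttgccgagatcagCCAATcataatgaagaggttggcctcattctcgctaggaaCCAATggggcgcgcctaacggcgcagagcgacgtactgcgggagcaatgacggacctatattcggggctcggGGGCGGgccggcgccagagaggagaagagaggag
Btg4, chr9:51115751-51116000: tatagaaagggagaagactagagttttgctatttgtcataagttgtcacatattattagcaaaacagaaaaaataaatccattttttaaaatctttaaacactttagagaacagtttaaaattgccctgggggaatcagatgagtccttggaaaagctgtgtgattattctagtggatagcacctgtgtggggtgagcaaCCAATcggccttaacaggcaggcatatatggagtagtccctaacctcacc
The Cnot3 window held 4 CCAAT boxes and 1 GC box at a G+C content of 62.4%, and the Btg4 window held 1 CCAAT box and no GC box at 38.0%. Among 32851 windows of this length, 33.8% held a CCAAT box, 0.84% held 4 or more, and 32.7% held a GC box. The letters TATAAA (12.4% of windows) and TAATTG (the NOBOX element, 7.17%) were in neither.

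CUT&Tag peak lists from bulk oocytes, 3 libraries a group, gave a second readout at these genes. A peak of phosphorylated RNA polymerase II touched the Cnot3 promoter window, with the 50 bases after its start included, in 2 of 3 p20 control libraries. One was called there in 0 of 3 adult GV controls and in 0 of 3 adult Dis3 cKO libraries. Over all promoter windows, 4.51 to 5.24% met a polymerase peak in p20 controls, 1.32 to 2.63% in adult controls and 2.04 to 5.88% in adult Dis3 cKO. The Btg4 window met no polymerase or H3K27me3 peak in any group, and neither did the windows of Cnot6l, Cnot2 and Pan2. That Btg4 window lies inside the annotated gene span (chr9:51102147-51119924), so its listed start is not the start of that span. Across the whole gene, polymerase peaks lay in all 3 libraries of every group at 6 members (Cnot1, Cnot2, Cnot3, Cnot6l, Cnot7 and Pan2). In any single library 23.6 to 56.7% of protein-coding genes held one, and the share with one in every library was not computed. The spans of these members ran from 15863 bases (Cnot3) to 96741 (Cnot2). All but Pan2 overlap another gene, so their peaks are not assigned to 1 gene. The Btg4 gene held a polymerase peak in 1 of 3 p20 controls and in no adult library. It held H3K27me3 peaks, a Polycomb mark, in 2 of 3 adult controls and in 3 of 3 libraries of each other group. In any single library 33.6 to 55.7% of protein-coding genes held one. Hoatz, Mir34b and Mir34c overlap the annotated Btg4 span, so a peak there is not assigned to 1 gene. At the first of the Cnot8 windows (chr11:58092544-58092843) an H3K27me3 peak was called in 2 of 3 dcKO, 1 of 3 adult Dis3 cKO and none of the control libraries. At 2 of the 3 other Cnot8 windows it was called in 1 of 3 p20 controls and in no dcKO library. At each of those 3 other windows a polymerase peak was called in 1 of 3 p20 controls. Over all promoter windows 10.6 to 20.2% met an H3K27me3 peak per library.

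Poly(A) libraries held 4843964 to 15412200 gene counts and RiboMinus libraries 8492102 to 35429028. Group means of Dis3 were 0.68 to 3.15 CPM (gene counts scaled to the library total) in the Dis3 cKO and dcKO groups and 8.16 to 14.9 in controls. Across stages single libraries overlapped, with MII controls from 2.19 to 17.3 CPM and a GV Dis3 cKO library at 6.91. Within each stage and assay every library of these knockouts was below every control in CPM, most narrowly at MII (2.14 against 2.19). Per 1000 ERCC spike-in counts the MII libraries overlapped, with Dis3 cKO up to 0.144 and controls from 0.0999. Exosc10 averaged 113 CPM in p20 controls and 3.11 in its own cKO. In dcKO it averaged 7.84 CPM, and Dis3 there was 3.1, so both targets were low in that genotype. All 9 oocyte markers were detected in every group. The 9 granulosa markers summed to 40.6 to 194 CPM, mostly Nr5a2 and Cyp19a1. At p20 the median sum was 113 in controls, 141 in Dis3 cKO, 132 in Exosc10 cKO and 144 in dcKO. In adult RiboMinus libraries it was 108 in Dis3 cKO and 89.3 in controls. In poly(A) libraries Dis3 cKO and controls gave 91.1 and 110 at GV, 65.5 and 81.6 at GV3h, and 58.8 and 83.3 at MII. The part of these markers in the results was not tested. Stromal and immune marker sums stayed at or under 10.9 and 7.56 CPM. Changes are log2 values from edgeR's quasi-likelihood test after TMM scaling, which multiplied CPM by 1.2 in MII controls and 0.981 in GV controls on average, and p-values are adjusted over all genes with 0.05 as the threshold. ERCC spike-in RNA was counted in every library, although the labels describe its addition for the poly(A) libraries only. Gene counts per spike-in count were 137.3 ± 16.15 (SD, n = 8) in GV controls but 46 ± 3.432 (n = 8) in MII controls, and 1267 ± 178.4 (n = 8) in p20 controls but 402.9 ± 48.48 (n = 8) in adult RiboMinus controls. Values are on the TMM scale unless called per spike-in, and the members whose direction depends on that choice are given on both scales, here or among the alternatives at the end.

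Members were compared between control MII eggs and control GV oocytes. After TMM scaling, Btg4, Cnot8, Cnot7, Pan2, Cnot6 and Cnot6l were higher in the eggs and Zfp36l2 was lower, which made 7 of 10 members called against 58.5% of all genes. The scaffold and NOT-module genes Cnot1, Cnot2 and Cnot3 were not called, at log2 changes of -0.15 ± 0.15, -0.19 ± 0.10 and -0.10 ± 0.13 (SE), but all 3 were called lower per spike-in (-2.02, -2.05 and -1.95). The spike-in scale called 0 members higher and 8 lower, where 87.8% of all genes were called. Counted per spike-in RNA, the 6 higher members were lower (Cnot7, Pan2, Cnot6 and Cnot6l) or not called (Btg4 and Cnot8). That scale assumes an equal amount of spike-in RNA at both stages. The median of all genes was -0.27 on the TMM scale and -2.12 per spike-in. The median log2 change of the 10 members was 0.87 on the TMM scale, while per spike-in all 10 values were negative, from -0.14 for Cnot8 to -2.70 for Zfp36l2.

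Btg4 ran from 1280 through a median of 1710 to 1890 CPM in the 8 GV controls. In the 8 MII controls it ran from 3870 through 4190 to 4750. Every MII egg was above every GV oocyte. The log2 change was 1.69 ± 0.11 (SE), a 3.23-fold rise at an adjusted p of 5.13e-22 by edgeR. Per 1000 spike-in counts the same libraries gave 220 ± 29.4 (SD, n = 8) at GV and 197 ± 16.3 (n = 8) at MII. Those groups overlapped, and the spike-in scaled log2 change was -0.16 with an adjusted p of 0.369.

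Cnot8, a CAF1-type nuclease, rose from 143, 173 and 195 CPM (lowest, median and highest of 8 GV controls) to 343, 490 and 605 at MII, without overlap. Its log2 change was 1.71 ± 0.12 (adjusted p = 1.86e-20), and -0.14 per spike-in (adjusted p = 0.502). Its paralogue Cnot7 rose from 416, 607 and 721 CPM to 924, 1050 and 1320, again without overlap. The log2 change of Cnot7 was 1.20 ± 0.13 (adjusted p = 1.49e-12), but per spike-in it was -0.65 (adjusted p = 0.000228), so the direction turned. Pan2, the nuclease of the other complex, went from 87.1, 136 and 166 to 185, 276 and 331 CPM. Its log2 change of 1.33 ± 0.12 (adjusted p = 1.32e-15) became -0.51 per spike-in (adjusted p = 0.0201).

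The CCR4-type pair had smaller changes than Btg4, Cnot8, Cnot7 and Pan2 on the TMM scale and more negative ones per spike-in. Cnot6l gave 657, 812 and 945 CPM at GV and 936, 1210 and 1560 at MII, with a log2 change of 0.88 ± 0.13 (adjusted p = 3.48e-08) and -0.96 per spike-in. Cnot6 gave 45.7, 60.8 and 68.9 CPM at GV and 63.2, 92.6 and 109 at MII, with a log2 change of 0.86 ± 0.15 (adjusted p = 1.44e-06) and -1 per spike-in. For both genes a few libraries of the 2 stages overlapped in CPM. Zfp36l2 was sparse, with 10 to 64 counts per control library at these stages. It fell from 3.36, 4.67 and 6.59 CPM at GV to 0.87, 1.6 and 6.06 at MII, a log2 change of -0.86 ± 0.35 (adjusted p = 0.0289) that was -2.70 per spike-in. The call was lost without MII control replicate 8 (adjusted p = 0.0669). On both scales Btg4 and Cnot8 lay well above the median of all genes.

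In Dis3 cKO oocytes the same stage comparison called 9 of 10 members, 7 higher and 2 lower, against 63.3% of all genes. Btg4 went from 1370, 1810 and 2180 CPM (15 GV oocytes) to 3330, 4630 and 5470 (16 MII eggs), a log2 change of 1.62 ± 0.08. Cnot8 changed by 1.85 ± 0.09, Pan2 by 1.42 ± 0.09, Cnot7 by 0.93 ± 0.09 and Cnot3 by 0.47 ± 0.09, with adjusted p-values from 7.35e-06 down to 6.57e-30 by edgeR. Per spike-in 2 were higher and 7 lower, where 83.6% of all genes were called. On that scale Btg4 and Cnot8 remained higher (0.34 and 0.59, adjusted p = 0.00774 and 0.00012), while Cnot3, Cnot6, Cnot6l and Cnot7 turned lower, Cnot2 was called lower (-1.33, adjusted p = 3.91e-13) and Pan2 was not called (0.19, adjusted p = 0.238). The all-gene median under that scaling was -1.50. GV Dis3 cKO replicate 16 held 207.899 gene counts per spike-in count, where the others reached at most 122.079. MII Dis3 cKO replicate 15 held 14.3945, where the others held at least 48.5869. Spike-in scaled changes were not computed without these libraries.

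**Figure D1:**
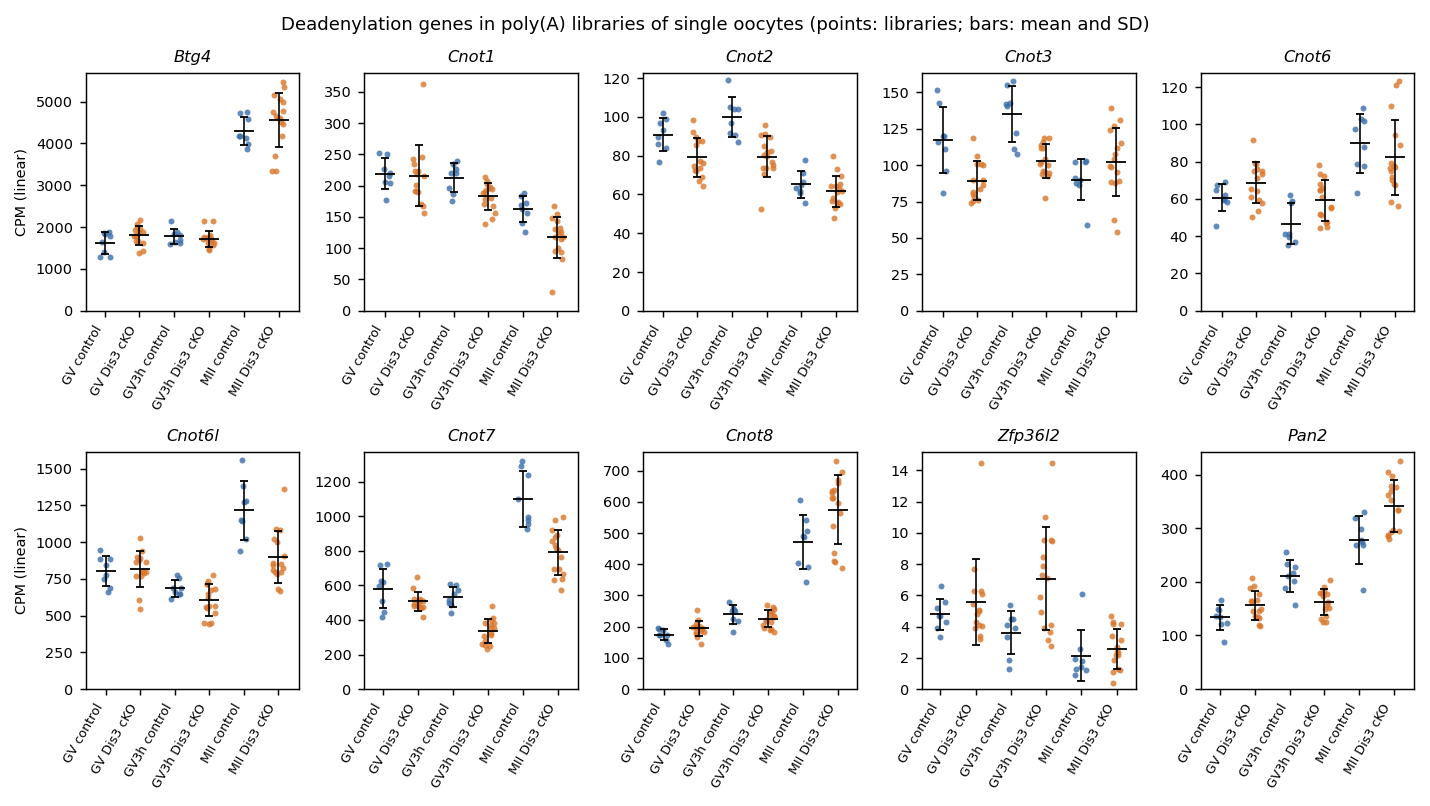
CPM (linear axes) of each member in every poly(A) library, with a point per oocyte and bars for the group mean and SD, blue for controls and orange for Dis3 cKO. The MII columns of Btg4 (lowest control 3870) and Cnot8 (lowest control 343) sit above all GV and GV3h control libraries (highest 2140 and 278).

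**Figure D2:**
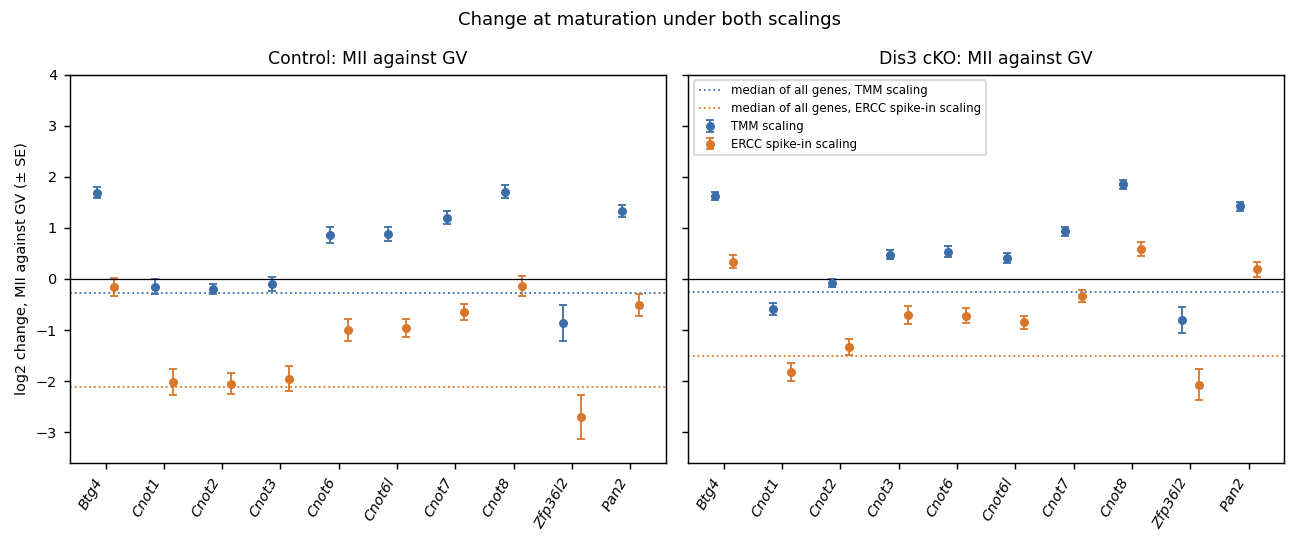
log2 change of each member from GV to MII with its SE, in controls (left) and Dis3 cKO (right), after TMM scaling (blue) and spike-in scaling (orange), with dotted lines at the median of all genes. In controls Btg4 is at 1.69 and -0.16, and the medians are at -0.27 and -2.12.

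The earlier step, control GV3h against control GV, called 2 of 10 members against 2.71% of all genes. Pan2 rose from 87.1, 136 and 166 CPM to 156, 213 and 255, a log2 change of 0.66 ± 0.12 (adjusted p = 0.000583). Cnot8 rose from 143, 173 and 195 CPM to 184, 249 and 278, a log2 change of 0.46 ± 0.12 (adjusted p = 0.019). The ranges of both genes overlapped between the stages in CPM. On the spike-in scale Pan2 was 0.92 (adjusted p = 0.0128) and Cnot8 was 0.67 but not called (adjusted p = 0.0848). Btg4 was 0.13 ± 0.11 and not called.

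The effect of the Dis3 cKO was measured at each stage. At GV, 2 of 10 members were called, both lower, against 21.9% of all genes. These were the NOT-module genes Cnot3, at 117 ± 22.9 CPM in controls (SD, n = 8) and 89.5 ± 13.3 in Dis3 cKO (n = 15; log2 -0.47 ± 0.11, adjusted p = 0.000653), and Cnot2, with 76.6, 91.4 and 102 against 64.3, 76.2 and 98.4 CPM (log2 -0.28 ± 0.09, adjusted p = 0.0138). The ranges overlapped for both genes. Btg4 did not pass, at 0.08 ± 0.10. Per spike-in Cnot7 was also called lower at GV (-0.54, adjusted p = 0.00262).

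At GV3h, 7 of 10 members were called, 1 higher and 6 lower, against 38.6% of all genes. The median log2 change over all 10 members was -0.34 beside 0.07 for all genes. Cnot7 gave the largest decrease, from 443, 532 and 608 CPM in controls to 232, 337 and 479 in Dis3 cKO. Its log2 change was -0.81 ± 0.11, 0.57 of the control level (adjusted p = 1.03e-08), and per spike-in the groups did not overlap, at 65 to 105 against 33 to 55.3 per 1000 spike-in counts. Its paralogue Cnot8 was -0.23 ± 0.10 and not called (adjusted p = 0.068). Cnot3 fell from 135 ± 19.1 CPM (SD, n = 8) to 103 ± 11.5 (n = 16), a log2 change of -0.53 ± 0.11 (SE). Cnot2 fell from 99.8 ± 10.2 CPM to 79.6 ± 10.4, a log2 change of -0.47 ± 0.08. Pan2 fell from 156, 213 and 255 to 125, 168 and 203 (-0.51 ± 0.10). These changes had adjusted p-values of 4.65e-05, 6.42e-06 and 3.57e-05. Cnot1 (-0.36 ± 0.13) and Cnot6l (-0.32 ± 0.11) also fell, with adjusted p-values of 0.0183 and 0.0223. The Cnot1 call was lost per spike-in (log2 -0.38, adjusted p = 0.168). Zfp36l2 was the member that rose, from 1.31, 4 and 5.38 CPM to 2.73, 7.2 and 14.5 (log2 0.82 ± 0.31, adjusted p = 0.0281). It rested on 14 to 167 counts per library and missed the threshold per spike-in (0.86, adjusted p = 0.0637) and without the filter on low counts (adjusted p = 0.0521).

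At MII, 3 of 10 members were called, all lower, against 42.1% of all genes, and all 3 were also among the members called at GV3h. Cnot7 went from 924, 1050 and 1320 CPM in controls to 576, 808 and 997 in Dis3 cKO (log2 -0.56 ± 0.11, adjusted p = 2.68e-05). The scaffold Cnot1 went from 126, 165 and 189 to 30.7, 121 and 167 (-0.55 ± 0.13, adjusted p = 0.000304), and was -0.48 ± 0.10 without replicate 15, which held its lowest value and 14.3945 gene counts per spike-in count, the fewest of its group. Cnot6l went from 936, 1210 and 1560 to 667, 849 and 1360 (-0.52 ± 0.11, adjusted p = 0.000126). The ranges overlapped for all 3 genes. Per spike-in these 3 calls were lost (-0.23, -0.16 and -0.20) and Cnot3, Cnot8 and Pan2 were called higher (0.52, 0.55 and 0.58), with the all-gene median at 0.52 and 41.9% of all genes called. Btg4 did not differ detectably at MII (0.00 ± 0.09), with 3870 to 4750 CPM in controls and 3330 to 5470 in Dis3 cKO. For Dis3, MII control replicates 6 to 8 stood at 2.19 to 4.42 CPM, where replicates 1 to 5 ran from 8.12 to 17.3. Those eggs gave 1240 to 1320 CPM of Cnot7 (others 924 to 1100) and 1270 to 1560 of Cnot6l (others 936 to 1280). Their Cnot8 ran from 343 to 405 CPM (others 489 to 605). The calls of Cnot7 and Cnot6l were not tested without these controls together.

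Tests of the difference between stages singled out 3 members. Setting the Dis3 effect at GV3h against that at GV called 1 of 10 members against 2.04% of all genes, namely Pan2 (-0.65 ± 0.15, adjusted p = 0.00977; per spike-in -0.46 with an adjusted p of 0.447, so not called). The larger decrease of Cnot7 at GV3h was not called in that test (-0.53 ± 0.16, adjusted p = 0.0611), nor per spike-in (-0.34, adjusted p = 0.489), but it was without GV control replicate 1 (-0.62, adjusted p = 0.021). Setting the Dis3 effect at MII against that at GV called 2 of 10 members against 13.2% of all genes. Cnot3 was lower in Dis3 cKO at GV but not at MII, a difference of 0.57 ± 0.16 (adjusted p = 0.00858) that was also called per spike-in (adjusted p = 0.00144). Cnot6l gave -0.47 ± 0.16 (adjusted p = 0.0432), a call that was lost without MII control replicate 8 (-0.40, adjusted p = 0.0914) or replicate 1 (-0.46, adjusted p = 0.0588) and turned sign per spike-in (0.11). The stage comparisons share their GV samples, so their values stand side by side and are not independent.

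**Figure D3:**
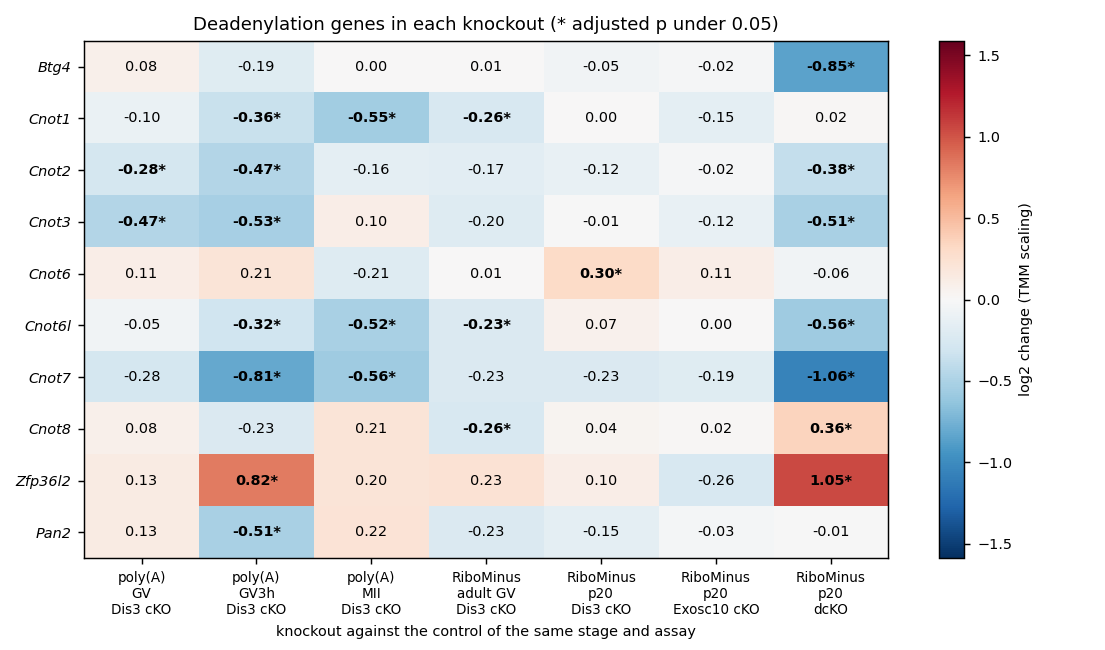
log2 change of each member (rows) in each knockout against the control of the same stage and assay (columns), coloured from blue (lower) to red (higher), with a star where the adjusted p is under 0.05. Cnot7 is starred at poly(A) GV3h (-0.81), poly(A) MII (-0.56) and p20 dcKO (-1.06), and Btg4 at p20 dcKO alone (-0.85).

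In RiboMinus libraries of adult GV oocytes, which do not select for tails, Dis3 loss gave small changes. A call was made for 3 of 10 members, all lower, against 28.1% of all genes: Cnot1 (383, 407 and 459 CPM in controls, 306, 378 and 402 in Dis3 cKO, log2 -0.26 ± 0.07, adjusted p = 0.0072), Cnot6l (-0.23 ± 0.07, adjusted p = 0.0203) and Cnot8 (-0.26 ± 0.09, adjusted p = 0.0341). The titles carry a tag, AM1758 or AM1759 in controls and AM1713 or AM1757 in Dis3 cKO, whose meaning the labels do not give. Dis3 ran from 18.7 to 20.5 CPM in the AM1758 controls and from 8.72 to 11.9 in the AM1759 controls. With counts summed per tag no member was called, leaving out AM1758 left 0 calls, leaving out AM1759 left 1, and leaving out AM1757 gave 5. Per spike-in, 9 of 10 members were called lower, where 44.6% of all genes were called, with log2 changes of -0.55 for Btg4 and -0.79 for Cnot7, beside an all-gene median of -0.52. Btg4 was 0.01 ± 0.09 on the TMM scale, at 1220, 1510 and 1630 CPM in controls and 1320, 1540 and 1940 in Dis3 cKO.

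Each single knockout was compared with control at p20. Dis3 cKO called 1 of 10 members against 7.37% of all genes. That was Cnot6, higher at 123 ± 15.1 CPM (SD, n = 8) against 98.8 ± 10.8 in controls (n = 8; log2 0.30 ± 0.09, adjusted p = 0.0341), a call lost without replicate 2_1 (adjusted p = 0.0612) and absent per spike-in (0.00). Per spike-in no member was called in Dis3 cKO, with Cnot7 at -0.53, Pan2 at -0.44 and Cnot2 at -0.42 beside an all-gene median of -0.31. Exosc10 cKO called 0 of 10 members by edgeR, against 7.45% of all genes. DESeq2 also called 0, and 1 member had an unadjusted p under 0.05. Btg4 was -0.05 ± 0.10 in Dis3 cKO and -0.02 ± 0.10 in Exosc10 cKO, and Cnot7 was -0.23 ± 0.14 and -0.19 ± 0.14.

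The dcKO oocytes differed from p20 controls at 7 of 10 members, 2 higher and 5 lower, against 53.7% of all genes. The median log2 change over all 10 members was -0.22 beside -0.01 for all genes. Cnot7 fell from 423, 616 and 858 CPM in controls to 289, 344 and 402 in dcKO. Every dcKO oocyte was below every control, and the groups were also apart per spike-in. The log2 change was -1.06 ± 0.14, 0.478 of the control level (adjusted p = 8.41e-08). Btg4 fell from 998, 1210 and 1400 CPM to 597, 755 and 901, without overlap in CPM, a log2 change of -0.85 ± 0.10 (adjusted p = 2.35e-08) that was -0.88 per spike-in. Cnot6l fell from 954, 1020 and 1200 to 703, 783 and 876 CPM (-0.56 ± 0.10, adjusted p = 8.13e-06) and Cnot3 from 395, 412 and 490 to 288, 336 and 389 (-0.51 ± 0.09, adjusted p = 9.85e-06), neither with overlap in CPM. Per spike-in the groups overlapped for Btg4, Cnot6l and Cnot3, although each was still called lower. Cnot2 gave 115, 127 and 145 CPM against 96.4, 106 and 137 (-0.38 ± 0.10, adjusted p = 0.00234), with a call lost per spike-in (-0.41, adjusted p = 0.0626). The scaffold Cnot1 was not called (0.02 ± 0.07), nor were Cnot6 (-0.06 ± 0.09) and Pan2 (-0.01 ± 0.09).

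Values of the dcKO libraries with title tags 1 and 2 are given apart, and the tags were not tested against each other. Btg4 ran from 597 to 745 CPM in tag 1 and from 765 to 901 in tag 2, and Cnot1 averaged 637 ± 30.2 (SD, n = 4) and 537 ± 50.4 (n = 4). Per 1000 spike-in counts Btg4 ran from 545 to 756 in tag 1 and from 821 to 1190 in tag 2. Zfp36l2 rose from 16.2, 31.5 and 43.9 CPM in controls to 34.3, 60.9 and 169 in dcKO, a log2 change of 1.05 ± 0.24 (adjusted p = 0.000474). The dcKO libraries of tag 1 averaged 94.4 ± 51.7 CPM (SD, n = 4) and those of tag 2 averaged 52.4 ± 14.7 (n = 4), with overlapping ranges, and replicate 1_2 alone held 169. Without replicate 1_2 the change was 0.75 ± 0.21 (adjusted p = 0.00394), and without tag 1 it was 0.61 ± 0.25 (adjusted p = 0.0487). Cnot8 rose from 108, 116 and 134 CPM to 139, 165 and 234 (0.36 ± 0.09, adjusted p = 0.00182), apart in CPM but overlapping after TMM scaling. Tag 1 averaged 195 ± 26.6 CPM (n = 4) and tag 2 averaged 146 ± 8.23 (n = 4), but per 1000 spike-in counts the tags overlapped, at 165 to 198 and 149 to 205. Without tag 1 the call was lost (0.18, adjusted p = 0.159). It was also lost per spike-in (0.27, adjusted p = 0.251). The CAF1-type paralogues Cnot7 and Cnot8 thus had opposite signs in dcKO on both scales, with Cnot8 short of the threshold on the second.

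**Figure D4:**
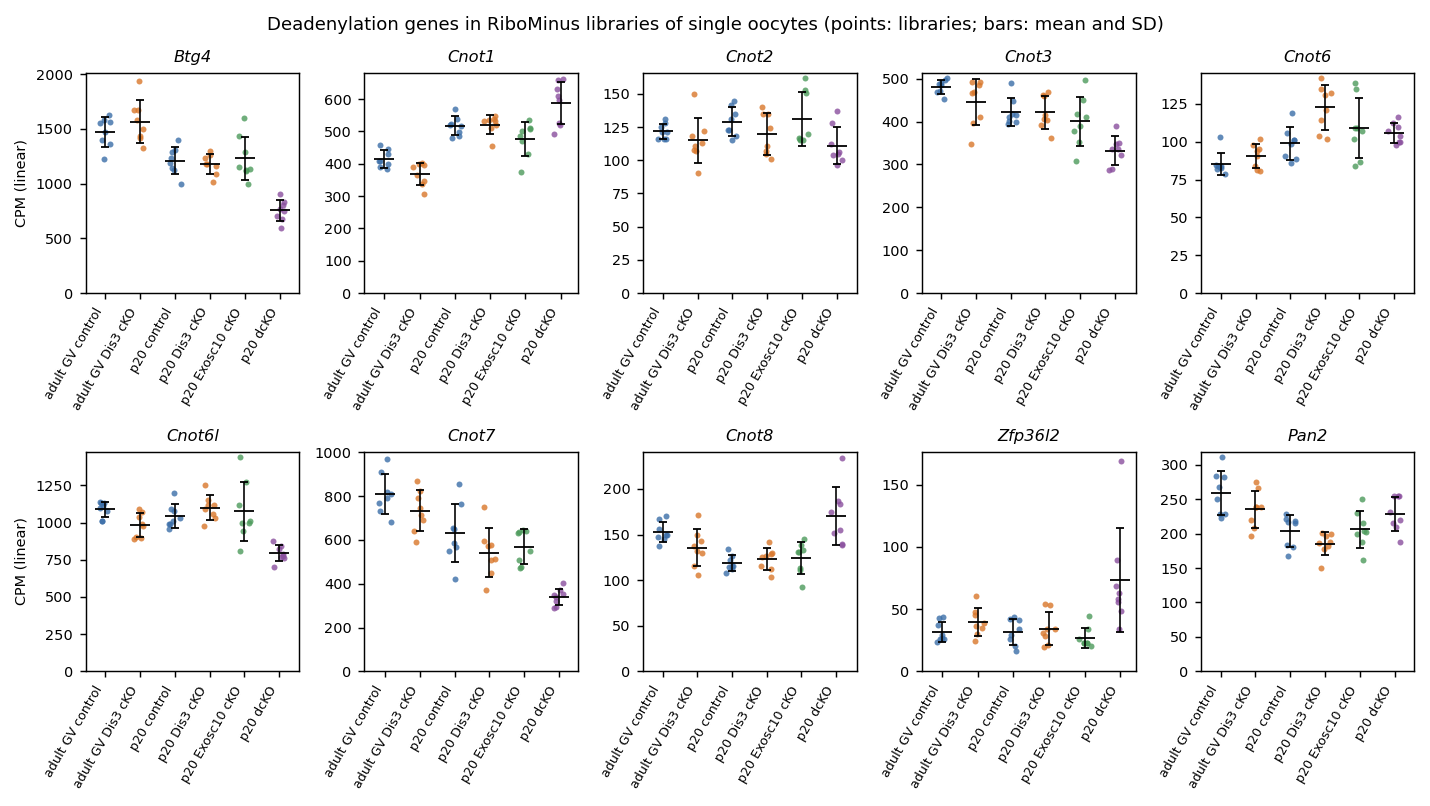
CPM (linear axes) of each member in every RiboMinus library, with a point per oocyte and bars for the group mean and SD. The dcKO points (purple) of Btg4 and Cnot7 end at 901 and 402, below all p20 controls (lowest 998 and 423), and 1 Zfp36l2 library in dcKO stands at 169.

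Against each single knockout the dcKO gave similar members. Against Dis3 cKO it called 8 of 10, 2 higher and 6 lower, where 51.5% of all genes were called. Against Exosc10 cKO it called 8 of 10, 3 higher and 5 lower, where 49.2% were called. Btg4 was -0.79 ± 0.10 against Dis3 cKO and -0.82 ± 0.10 against Exosc10 cKO (adjusted p = 1.03e-07 and 6.03e-08), with no overlap in CPM, since the single knockouts began at 1010 and 999. Cnot7 was -0.83 ± 0.14 and -0.87 ± 0.14 (adjusted p = 6.16e-06 and 3.43e-06). Cnot6l was -0.63 ± 0.10 and -0.56 ± 0.10 (adjusted p = 1.88e-06 and 1.09e-05), but against Dis3 cKO its call was lost per spike-in (-0.37, adjusted p = 0.12). Zfp36l2 was 0.95 ± 0.24 and 1.31 ± 0.25 (adjusted p = 0.00154 and 4.31e-05). Without tag 1 of dcKO the Zfp36l2 difference from Dis3 cKO was 0.51 and not called (adjusted p = 0.11). Per spike-in each of the comparisons called 4 members in place of 8, and the shares of all genes called were 36.9% against Dis3 cKO and 31.6% against Exosc10 cKO. All of these comparisons share the dcKO libraries.

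Age was compared in RiboMinus controls, adult GV against p20. A call was made for 5 of 10 members, 4 higher and 1 lower, against 19.1% of all genes. Cnot8 (0.40 ± 0.09, adjusted p = 0.00172), Pan2 (0.38 ± 0.10, adjusted p = 0.00366), Cnot7 (0.39 ± 0.13, adjusted p = 0.0287) and Btg4 (0.32 ± 0.10, adjusted p = 0.0239) were higher in adults, and Cnot1 was lower, at 383 to 459 CPM against 480 to 570 without overlap (-0.28 ± 0.07, adjusted p = 0.00427). With counts summed per tag none was called, and none was called without tag 2 of the p20 controls. Per spike-in all 10 members were called lower in adults, where 86.1% of all genes were called, from -1.28 for Cnot7 to -1.97 for Cnot1, beside an all-gene median of -1.69, which assumes an equal amount of spike-in RNA at both ages. The Dis3 effect in adults was set against that at p20 and called 0 of 10 members by edgeR, against 9.32% of all genes, with 4 members under an unadjusted p of 0.05 and 0 called by DESeq2. Leaving out tag AM1757 called 4 members and leaving out p20 Dis3 cKO replicate 2_1 called 1 (Cnot1, -0.31, adjusted p = 0.0438).

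Levels in both assays were set side by side. In GV controls the poly(A) level over the RiboMinus level, both in CPM, was 4.78 over 31.8 for Zfp36l2, a log2 ratio of -2.74 at the 0.566th percentile of 12362 genes. Cnot3 stood at 117 over 482 CPM, a log2 ratio of -2.04 at the 2.06th percentile. Btg4 stood at 1620 over 1470 CPM, a log2 ratio of 0.14 at the 49.6th percentile beside an all-gene median of 0.15. Pan2 (-0.96) and Cnot1 (-0.92) were at the 13.5th and 14.3rd percentiles, and the other members lay between the 26.3rd and 51.5th. The assays differ in priming, kit and depth as well as in tail selection, and no test was run between them.

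Within each gene, the order of group means showed which groups stood apart. For Btg4 in poly(A) libraries both MII groups (4560 in Dis3 cKO and 4300 in controls) exceeded the other 4 groups (1620 to 1800), whose neighbours differed by less than 1 SD. For Cnot7 the order was MII control (1100), MII Dis3 cKO (790), GV control (582), GV3h control (534), GV Dis3 cKO (507) and GV3h Dis3 cKO (334). In that order only GV control to GV3h control and GV3h control to GV Dis3 cKO were steps within 1 SD. For Zfp36l2 no neighbouring groups differed by more than 1 SD in poly(A) libraries, from 7.08 ± 3.3 (GV3h Dis3 cKO, n = 16) to 2.15 ± 1.66 (MII control, n = 8). In RiboMinus libraries Btg4, Cnot3, Cnot6l and Cnot7 had their lowest mean in dcKO, each further than 1 SD below the next group, at 754, 332, 793 and 339 CPM.

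The genes closest to Btg4 over the 12 group means were Bcl2l10, Rchy1 and Hpf1, at root-mean-square distances of 0.112, 0.113 and 0.117 in centred log2 CPM, where the median of 7543 genes was 0.691. Those closest to Cnot7 were Taf3, Cep55 and Mcu, at 0.129, 0.139 and 0.146, where the median was 0.653. Poly(A) and RiboMinus groups enter this distance together, so the assay is part of the pattern. Zfp36l2 was below the level set for this comparison.

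Of 22 other deadenylation genes (other CCR4-NOT subunits, PAN3, PARN and related nucleases, TOB/BTG adaptors, ZFP36 and PUM proteins), 21 were tested in poly(A) data and 20 in RiboMinus data. At control maturation from GV to MII, 8 were higher and 5 lower, beside 58.5% of all genes called, led by the PARN-like nuclease gene Pnldc1 (-3.18 ± 0.42), Angel2 (1.51 ± 0.11), the BTG/TOB family adaptor Tob1 (-1.26 ± 0.26) and Toe1 (-1.17 ± 0.47). The median over all 21 tested was 0.31 beside -0.27 for all genes. Per spike-in Angel2 was -0.35 and not called (adjusted p = 0.0611), and Pnldc1, Tob1 and Toe1 remained lower (-5.08, -3.15 and -3.06). In Dis3 cKO, 3 were higher and 0 lower at GV, 4 higher and 3 lower at GV3h, and 4 higher and 4 lower at MII, where 21.9%, 38.6% and 42.1% of all genes were called. Tob1 was 1.00 ± 0.23 at GV3h and 1.11 ± 0.23 at MII (adjusted p = 0.000276 and 7.3e-05), and its Dis3 effect at MII differed from that at GV (0.89 ± 0.31, adjusted p = 0.047). Toe1 was 2 ± 0.43 at GV3h (adjusted p = 0.000133). In dcKO, where 53.7% of all genes were called, 7 were higher and 7 lower, among them Btg3 (2.09 ± 0.55), Toe1 (2.05 ± 0.28), the deadenylase-related Noct (-1.39 ± 0.12) and Tob1 (0.94 ± 0.17), with adjusted p-values of 0.00172, 2.71e-07, 4.36e-11 and 1.37e-05. Exosc10 cKO called 0 of them by edgeR and 1 by DESeq2, with 2 under an unadjusted p of 0.05, and Dis3 cKO at p20 called 1, Tob1 (0.71 ± 0.16, adjusted p = 0.00407), which was not called per spike-in (0.33, adjusted p = 0.369).

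Of 5 poly(A)-binding protein genes, 3 were called in Dis3 cKO at GV, 1 higher and 2 lower, where 21.9% of all genes were called. At GV3h 3 were called, 1 higher and 2 lower (38.6%), and at MII 1 was called, lower (42.1%). In RiboMinus libraries 2 were called in adult Dis3 cKO (28.1%), 2 in each p20 single knockout (7.37% and 7.45%) and 3 in dcKO (53.7%). Pabpc4 was lower in Dis3 cKO at each poly(A) stage (-0.53 ± 0.11 at GV, -0.43 ± 0.11 at GV3h and -0.40 ± 0.11 at MII, adjusted p from 0.000141 to 0.00194). It was also lower in adult RiboMinus Dis3 cKO (-0.48 ± 0.09) and in each p20 knockout (-0.50 ± 0.14 in Dis3 cKO, -0.71 ± 0.14 in Exosc10 cKO and -0.51 ± 0.14 in dcKO), with adjusted p-values from 0.00065 to 0.0216. Per spike-in the Pabpc4 call was lost at GV3h (-0.44, adjusted p = 0.0522) and at MII (-0.09, adjusted p = 0.707). Pabpc1l, the poly(A)-binding protein gene of oocytes, was lower in Dis3 cKO at GV (-0.62 ± 0.17, adjusted p = 0.0033), at GV3h (-0.52 ± 0.16, adjusted p = 0.0083, not called per spike-in) and in adult RiboMinus libraries (-0.55 ± 0.06, adjusted p = 6.62e-06). At p20 it was lower in Dis3 cKO (-0.34 ± 0.08, adjusted p = 0.00776) and in Exosc10 cKO (-0.37 ± 0.08, adjusted p = 0.00375, not called per spike-in). It was not called in Dis3 cKO at MII (-0.05 ± 0.17, adjusted p = 0.844) or in dcKO (-0.18 ± 0.08, adjusted p = 0.0592). Pabpc1, its somatic counterpart, was higher in dcKO (1.48 ± 0.23, adjusted p = 1.86e-06). After TMM scaling it was also higher in Dis3 cKO at GV3h (0.92 ± 0.34, adjusted p = 0.025). The gene called higher in Dis3 cKO at GV was Pabpn1 (0.31 ± 0.11, adjusted p = 0.0338, TMM scale). In control MII against GV, Pabpn1 was 1.38 ± 0.13 after TMM scaling (adjusted p = 1.64e-15) but -0.48 per spike-in (adjusted p = 0.0105). Pabpc1l was lower on both scales, at -0.75 ± 0.19 (adjusted p = 0.000637) and -2.62 (adjusted p = 2.62e-10).

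In the annotation, Pan2 and Zfp36l2 overlap no other gene and the remaining 8 members do, for example Cnot3 with Leng1, Cnot7 with Vps37a and Cnot1 with Setd6. The sources used here do not say whether counting used strand or how reads shared by overlapping genes or paralogues were treated, so those 8 are uncertain where reads are shared.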

How the data were processed

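Single-oocyte RNA-seq gave 71 poly(A) and 48 RiboMinus libraries. The authors deposited raw counts per gene and, separately, per ERCC spike-in for each library. Per the submitters' processing notes the build was mm10 and the tools included cutadapt 2.5, FastQC 0.11.8, STAR 2.7.2a, SAMtools 1.9, HTSeq 0.9.1, DESeq2 1.24.0 and SEACR; the settings are not given in the sources used here. CUT&Tag peak lists, whose deposited signal column was not used, were made from libraries sampled to equal read numbers, per the labels' design text, and any overlap of at least 1 base counted.

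Counts were tested with edgeR 4.0.16 in R 4.3.3 (TMM, filterByExpr, quasi-likelihood F test, Benjamini-Hochberg over all genes), in 1 fit each for poly(A), adult RiboMinus, p20 RiboMinus and all RiboMinus libraries. DESeq2 1.42.0 was an alternative. The script was checked on simulated counts with 200 changed genes. No 2 libraries held equal counts at more than 5.12% of genes. Replicate numbers are not stated to pair oocytes. Tables used Python 3.11.15. Members and gene lists were chosen with earlier results of these data known. The text names the 10 members, Dis3 and Exosc10, at most 4 called genes of largest change from each other list and comparison, and the 3 nearest genes of Btg4 and of Cnot7 (the rule also covered Zfp36l2, whose level was too low). Peak overlaps and promoter windows were added after the count results had been seen. Poly(A) depth spans 4843964 to 15412200 and RiboMinus depth 8492102 to 35429028 gene counts.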

Additional observations from a re-analysis of the deposited data

Results flagged for a closer look

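In 8 of 90 member and group pairs with 8 libraries each, 1 library stood apart from the other 7, beyond Dixon's 95% critical value, and chance alone gives about 1 in 20 such pairs. In MII controls replicate 8 was lowest for Cnot3 at 59.0 CPM, where the others ran from 86.2 to 103, and for Pan2 at 185 CPM, where the others ran from 268 to 331. Replicate 1 of that group was highest for Zfp36l2 at 6.06 CPM, where the others ran from 0.87 to 2.56. Cnot6 was lowest in GV control replicate 1 at 45.7 CPM (others 58.2 to 68.9) and highest in adult control AM1759_1 at 103 CPM (others 78.7 to 84.9). In p20 Dis3 cKO, replicate 2_1 was lowest for Cnot1 at 455 CPM (others 509 to 546) and replicate 1_4 for Pan2 at 150 CPM (others 178 to 201). Zfp36l2 reached 169 CPM in dcKO replicate 1_2, where the others ran from 34.3 to 89.8.

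For 3 members an interaction term in edgeR passed the threshold for a stage difference in the Dis3 cKO effect after TMM scaling. Pan2 differed by -0.65 between GV3h and GV. Between MII and GV, Cnot3 differed by 0.57 and Cnot6l by -0.47. Per spike-in Pan2 was not called (-0.46, adjusted p = 0.447) and Cnot6l turned sign (0.11), and the Cnot6l call was also lost without MII control replicate 8 or replicate 1.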

How the results depend on the processing

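A single-member change was followed where its size reached its SE in the reported fit or where any setting called it. Of 1113 alternative values for 126 such changes, 947 kept their direction and call, 84 lost the call, 39 gained one and 43 turned sign. Spike-in scaling moved most. Counts of members called under it were 1 for control GV3h against GV, 0 and 4 for the stage differences at GV3h and MII, 9 for adult Dis3 cKO, 0 for p20 Dis3 cKO, 4 for dcKO against each single knockout and 10 for adult against p20. The shares of all genes called in those comparisons were 0.679%, 1.38%, 30.1%, 44.6%, 6.09%, 36.9% (against Dis3 cKO), 31.6% (against Exosc10 cKO) and 86.1%. Signs turned under it in Dis3 cKO for Pan2 at GV (-0.11), for Cnot2 (0.17) and Cnot6 (0.11) at MII, and for Btg4 (-0.55), Cnot6 (-0.56) and Zfp36l2 (-0.35) in adults, and Cnot6 at p20 came to 0.00. In control GV3h against GV they turned for Cnot6l (0.01) and Cnot7 (0.10). In control MII against GV they turned for Btg4 (-0.16), Cnot6 (-1), Cnot6l (-0.96), Cnot7 (-0.65), Cnot8 (-0.14) and Pan2 (-0.51), and in Dis3 cKO for Cnot3 (-0.71), Cnot6 (-0.72), Cnot6l (-0.85) and Cnot7 (-0.34). In the stage differences they turned for Cnot2 at GV3h (0.06) and, at MII, Cnot1 (0.20), Cnot6 (0.28), Cnot6l (0.11) and Cnot7 (0.31), and in dcKO against Dis3 cKO for Cnot2 (0.01). In adult against p20 controls they turned for Btg4 (-1.37), Cnot3 (-1.46), Cnot6l (-1.59), Cnot7 (-1.28), Cnot8 (-1.29), Zfp36l2 (-1.65) and Pan2 (-1.31). The cause was not tested.

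The stage difference at GV3h called 2 members with DESeq2, with only the groups compared, and without GV control replicate 1. That at MII called 3 with DESeq2. It called 1 without a filter on low counts, with only the groups compared, and without MII control replicate 8 or replicate 1. DESeq2 also called 4 members in Dis3 cKO at MII, where edgeR called 3. For dcKO against Dis3 cKO it called 7, where edgeR called 8. With no filter p20 Dis3 cKO called 0. Summing counts per title tag left 0 calls in adult Dis3 cKO, in p20 Dis3 cKO and in adult against p20, and 5 in dcKO against Exosc10 cKO. Leaving out 1 tag at a time gave 0 to 5 calls in adult Dis3 cKO, 0 to 1 in p20 Dis3 cKO, 5 to 7 in dcKO against Dis3 cKO, 5 to 8 in dcKO against Exosc10 cKO, 0 to 3 in adult against p20, and 0 to 4 for the Dis3 effect in adults against p20, which called 1 with only the groups compared. Without p20 Dis3 cKO replicate 2_1 p20 Dis3 cKO called 0, and the effect in adults against p20 called 1. Small adult Dis3 cKO changes of Btg4 and Cnot6, 0.01 each, turned without the filter (-0.01 and -0.01), with tags summed (-0.02 and -0.03) and without AM1757 (-0.15 and -0.16, against 0.14 and 0.15 without AM1713); Cnot6 also turned without AM1758 (-0.02), and Btg4 without AM1759 (-0.02) and without AM1759_1 (-0.01). Zfp36l2 in adult against p20, 0.05, turned without AM1758 (-0.08) and without AM1759_1 (-0.01). Single libraries to leave out were chosen after seeing the data, except GV control replicate 1 and MII Dis3 cKO replicate 15. Spike-in values of the other gene lists were likewise added after seeing the data.

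Samples share replicate numbers, but the labels do not state that they are paired. Deviations of same-numbered samples correlated at a mean of 0.0226 in poly(A) and 0.0208 in p20 libraries. Differently numbered samples gave means of -0.00155 and -0.00302. Of the same-numbered pairs 22 of 142 and 11 of 48 were over 0.1, a count not made for the other pairs. Single same-numbered pairs ran from -0.199 to 0.247 in poly(A) and from -0.406 to 0.483 at p20. The small means therefore cannot exclude pairing between some groups. With the replicate block the stage difference at MII called 1 member, as the Cnot6l call was lost (-0.48, adjusted p = 0.0523). Adult groups share no tag, so no paired analysis was possible there. Depth limits Zfp36l2 most, with 4 to 167 counts per poly(A) library.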
